A study of Mus musculus with 12 samples.

Results

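The immediate early transcription factors described here are 10 genes, Fos, Fosb, Fosl1, Jun, Junb, Egr1, Egr2, Egr3, Atf3 and Ier2, followed in 12 primary mammary tumours of mice. They were taken by name from the deposited count table, which held all 10 among its 56860 genes. All 10 passed the filter on low counts, which kept 30660 genes. Their lowest count in any library was 246, for Fosl1.

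Immediate early genes are transcribed within minutes of a stimulus without new protein synthesis, mainly through kinases of the ERK, JNK and p38 families that act on factors already bound at their promoters, such as serum response factor, ETS proteins and CREB. FOS and JUN proteins pair through leucine zippers to form AP-1. EGR proteins bind GC-rich sites through zinc fingers. In mammary epithelium these genes answer growth factor receptors, and in the tumours studied here the oncogene signals through Src, Shc and PI3 kinase. They are also known to be induced by tissue handling and cell stress.

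Tumours were taken at 4.5 months from 3 strains, and all carried MMTV-PyMT, in which the mouse mammary tumour virus promoter drives polyoma middle T in mammary epithelium. WT tumours carried MMTV-Cre and MMTV-PyMT by the design text, whereas their strain is labelled by the oncogene only. C3_KO tumours were from the strain MMTV-Cre;C3Tdt:MMTV-PyMT, and S1pr1_KO tumours from MMTV-Cre;S1pr1fl/fl; MMTV-PyMT. Each genotype had 4 libraries of total RNA. Cre under this promoter acts mainly in mammary epithelium, so that other cells of a tumour can keep C3 or the sphingosine-1-phosphate receptor gene S1pr1. The comparisons ask whether conditional loss of either gene goes with a different level of these factors in the tumour.

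Column totals ran from 230.4 to 484 M counts (M, 1000000). C3 was at 41.6 to 75.1 counts scaled to a library of 1000000 (CPM) in C3_KO and 43.3 to 182 CPM in WT (edgeR log2 fold change -0.76, SE 0.49, adjusted p = 0.765). S1pr1 was at 2.59 to 7.43 CPM in S1pr1_KO and 2.88 to 8.02 CPM in WT (edgeR log2 fold change -0.17, SE 0.43, adjusted p = 0.874), so these levels do not separate either knockout from WT. Which part of either gene is deleted is not given in the sources used here, and counts cover the whole gene. The summed level of 10 luminal epithelial markers was 2647 to 7889 CPM over the 12 libraries, and all 10 were detected. S1pr1_KO replicate 3 stood apart from the other libraries of its genotype. Its 18 ribosomal protein genes summed to 27540 CPM against 10220 to 13950 CPM in S1pr1_KO replicates 1, 2 and 4 and 22630 to 30600 CPM in WT. In C3_KO they summed to 11730 to 22960 CPM, with the lowest in replicate 4, so low sums were not confined to S1pr1_KO. The luminal markers of S1pr1_KO replicate 3 summed to 6232 CPM against 2647 to 3011 CPM in S1pr1_KO replicates 1, 2 and 4. Krt8, Krt18, Krt19, Cldn3, Cldn4 and Cldn7 were above those replicates, whereas Cdh1, Elf5 and Foxa1 lay within their range. Epcam was lower, at 376 CPM against 414 to 672 CPM, so the luminal markers did not move together. C3_KO replicate 3 stood apart by milk protein genes, which summed to 95520 CPM against 1288 to 5951 CPM in the other 11 libraries. Salivary gland genes summed to 152500 CPM in S1pr1_KO replicate 1 and 4707 CPM in S1pr1_KO replicate 4, against 8.30 to 209.2 CPM in the other 10. Values without these libraries are given beside some of the members. Ranges for all 10 members on leaving out 1 library at a time are given in the last section. Skeletal muscle genes summed to 3356 CPM in WT replicate 2, 1903 CPM in C3_KO replicate 2 and 1887 CPM in S1pr1_KO replicate 1. Their sum was 4.33 to 490.8 CPM in the remaining libraries, and the part of muscle in the levels of members was not tested.

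The promoter sequences of Fos, Junb and Egr2 are shown because these genes belong to the pairs of members with the highest r across tumours, given further on. That of Atf3, which was also close to Fosl1 and Fos, is not shown. A promoter was held in the RefSeq table (build GRCm38.p6) for 6 of the 10 genes, Fos, Fosb, Jun, Junb, Egr2 and Atf3. Each sequence below is the 250 bases before an annotated start, 5′ to 3′ on the strand of the gene. Capitals mark the letters TGACG, the start of the cAMP response element bound by CREB and ATF proteins, on either strand, and the CArG box, which serum response factor binds. The windows are chr12:85473640-85473889 on the plus strand for Fos, chr8:84978749-84978998 on the minus strand for Junb and chr10:67537619-67537868 on the plus strand for Egr2, which has other starts.
Fos: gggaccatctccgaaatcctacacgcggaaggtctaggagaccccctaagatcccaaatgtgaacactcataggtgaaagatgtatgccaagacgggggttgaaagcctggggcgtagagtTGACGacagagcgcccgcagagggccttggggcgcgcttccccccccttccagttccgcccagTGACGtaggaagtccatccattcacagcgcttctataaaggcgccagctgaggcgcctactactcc
Junb: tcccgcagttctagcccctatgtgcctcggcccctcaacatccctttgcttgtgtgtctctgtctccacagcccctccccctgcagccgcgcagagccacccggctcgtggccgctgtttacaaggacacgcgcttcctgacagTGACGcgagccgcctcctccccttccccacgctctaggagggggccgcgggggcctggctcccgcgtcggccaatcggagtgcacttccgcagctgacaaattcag
Egr2: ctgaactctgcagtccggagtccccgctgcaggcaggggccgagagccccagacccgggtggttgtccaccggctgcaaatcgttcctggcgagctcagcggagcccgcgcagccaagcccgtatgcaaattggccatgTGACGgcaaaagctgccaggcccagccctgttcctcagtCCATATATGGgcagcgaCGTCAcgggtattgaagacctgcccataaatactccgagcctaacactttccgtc

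In Fos, TGACG began 129 and 66 bases before the start, with TATAAA, the letters of a TATA box, 33 bases before it. In Junb, TGACG began 106 bases before the start. In Egr2, the CArG box began 72 bases before the start and lay between TGACG letters at 111 and 55 bases, the latter on the opposite strand. Over all annotated starts of the 6 genes there were 10 such windows, 5 of them of Egr2, of which several overlap. TGACG was found in 7 of the 10 windows, for every gene but Jun, and in 17.8% of all 32851 promoter windows of 250 bases. The CArG box was found in 4 of the 10 windows, all of Egr2, and in 1.47% of all promoters. The full element TGACGTCA (1.55% of all promoters) and the AP-1 site TGANTCA (6.75%) were found for none of the 6. The EGR site GCGGGGGCG was found for Fosb alone (2.57% of all promoters) and TATAAA for Fos alone (12.4%). Both strands were searched, every TGACGTCA also holds TGACG, and letters outside these windows were not examined.

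Compared per length, in deposited FPKM, which divides counts by gene length and library total, the 10 genes spanned more than 2 orders of magnitude. Ier2, a small nuclear regulator, had the highest mean level at 70.6 ± 25.3 FPKM (SD, n = 12), followed by Junb at 53.7 ± 25.3 and Jun at 49.1 ± 14.7 FPKM. Fos and Egr1 came next at 18.5 ± 6.42 and 15.6 ± 5.28 FPKM, and then Atf3 at 10.2 ± 6.14 FPKM (SD, n = 12). Egr2 and Egr3 stood at 2.36 ± 0.863 and 2.00 ± 0.752 FPKM. The lowest levels were those of Fosl1 at 0.770 ± 0.283 FPKM and Fosb at 0.573 ± 0.357 FPKM (SD, n = 12). Within single libraries the order of neighbours was not fixed. Junb exceeded Jun in 7 of 12 libraries, Egr2 exceeded Egr3 in 9 and Fosl1 exceeded Fosb in 9. Ier2 exceeded Junb in 10, Fos exceeded Egr1 in 10, and Egr1 exceeded Atf3 in 11. Atf3 exceeded Egr2 in all 12 libraries, by 2.02-fold to 20.9-fold, and Egr3 exceeded Fosl1 in all 12, by 1.10-fold to 4.02-fold. These values come from whole tumours, in which fewer cells of a type and less RNA per cell cannot be told apart.

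Fos encodes the AP-1 subunit that defines the family. Its level in replicates 1 to 4, in CPM scaled with TMM factors as for all levels that follow, was 60.0, 31.2, 27.8 and 34.6 CPM in WT. In C3_KO it was 31.5, 59.8, 84.3 and 38.7 CPM, and in S1pr1_KO 33.1, 35.5, 63.6 and 30.1 CPM. The 3 genotypes overlapped, and each held at least 1 tumour near 60 CPM or above and others near 30 CPM. In C3_KO against WT the means were 53.6 ± 23.7 and 38.4 ± 14.7 CPM (SD, n = 4), which is a log2 difference of 0.48 ± 0.35 (SE) (edgeR adjusted p = 0.766). It was 0.17 without C3_KO replicate 3 and 0.78 without WT replicate 1. The log2 fold change in S1pr1_KO against WT was 0.08 with a 95% interval of -0.68 to 0.84 (edgeR adjusted p = 0.930), and -0.18 without S1pr1_KO replicate 3.

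Fosb and Fosl1 encode other FOS proteins, of which Fosl1, also called Fra-1, lacks a transactivation domain. Fosb stood at 4.04, 2.04, 1.85 and 2.76 CPM in WT replicates 1 to 4, at 2.10, 2.47, 11.0 and 3.68 CPM in C3_KO and at 3.78, 2.89, 3.12 and 3.48 CPM in S1pr1_KO. C3_KO replicate 3 alone was far above the others, at 3.99-fold the mean of the other C3_KO tumours, and the remaining 11 libraries lay between 1.85 and 4.04 CPM. The log2 fold change in C3_KO against WT was 0.85 ± 0.48 (SE) and had the smallest p of the 10 genes there (edgeR adjusted p = 0.765), and 0.04 without C3_KO replicate 3. Fosl1 was at 2.20, 1.59, 0.716 and 1.96 CPM in WT, at 1.09, 1.86, 3.25 and 1.12 CPM in C3_KO and at 1.38, 1.26, 1.81 and 0.914 CPM in S1pr1_KO. It too was highest in C3_KO replicate 3, and lowest in WT replicate 3. Its log2 fold change in C3_KO against WT was 0.18 (edgeR adjusted p = 0.928) and turned to -0.25 without C3_KO replicate 3.

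Jun and Junb encode the partners of FOS proteins in AP-1, and Junb can act against Jun on shared sites. Jun was at 199.8, 116.3, 134.1 and 157.5 CPM in WT replicates 1 to 4, at 218.9, 176.2, 111.1 and 151.8 CPM in C3_KO and at 129.1, 125.8, 271.8 and 96.8 CPM in S1pr1_KO. Its mean was 152 ± 36.1 CPM in WT, 165 ± 45.2 CPM in C3_KO and 156 ± 78.7 CPM in S1pr1_KO (SD, n = 4), with log2 fold changes against WT of 0.12 and 0.04 (edgeR adjusted p = 0.939 and 0.965). Junb was at 223.5, 111.9, 110.0 and 90.1 CPM in WT, at 96.4, 216.4, 142.0 and 56.1 CPM in C3_KO and at 82.6, 58.8, 278.4 and 79.1 CPM in S1pr1_KO. One tumour of each genotype exceeded 200 CPM of Junb, namely WT replicate 1, C3_KO replicate 2 and S1pr1_KO replicate 3. The log2 fold change of Junb in S1pr1_KO against WT was -0.10 with a 95% interval of -1.22 to 1.01 (edgeR adjusted p = 0.941), and -0.82 ± 0.42 (SE) without S1pr1_KO replicate 3 (edgeR adjusted p = 0.230). In an older annotation Junb overlaps Prdx2 on the opposite strand and Jun overlaps Junos. The handling of strand is not given in the sources used here, so reads of these partners cannot be told apart. Prdx2, a peroxiredoxin gene, was at 288 to 480 CPM in WT, 149 to 315 CPM in C3_KO and 133 to 347 CPM in S1pr1_KO. Junos was at 9.99 to 22.6 CPM over all libraries. Fosl1 likewise overlaps Ccdc85b, at 17.1 to 67.8 CPM. In S1pr1_KO replicate 3, Prdx2 was at 347 CPM, Junos at 22.6 CPM and Ccdc85b at 67.8 CPM, each the highest of the S1pr1_KO tumours. The part of such reads in the levels of Junb, Jun and Fosl1 was not tested.

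The EGR genes encode zinc finger factors, Egr1 being the most abundant here. Egr1 was at 93.4, 107, 41.1 and 54.2 CPM in WT replicates 1 to 4, at 54.5, 126, 79.4 and 58.5 CPM in C3_KO and at 50.4, 59.5, 79.8 and 42.1 CPM in S1pr1_KO. Its mean was 74.0 ± 31.4 CPM in WT, 79.6 ± 32.9 CPM in C3_KO and 57.9 ± 16.2 CPM in S1pr1_KO (SD, n = 4). S1pr1_KO differed in Egr1 by a log2 value of -0.35 ± 0.35 (SE) from WT (edgeR adjusted p = 0.643) and of -0.46 ± 0.35 (SE) from C3_KO, where it had the smallest p of the 10 genes (edgeR adjusted p = 1). These values were -0.12 without WT replicate 2 and -0.15 without C3_KO replicate 2. Egr2, known from myelination and macrophages, was at 9.01, 14.3, 4.11 and 7.77 CPM in WT, 7.98, 9.66, 4.67 and 7.01 CPM in C3_KO and 9.56, 8.17, 10.2 and 3.99 CPM in S1pr1_KO. Egr3, closely related to Egr2, was at 8.18, 13.2, 3.04 and 7.62 CPM in WT, 8.93, 9.31, 7.78 and 9.76 CPM in C3_KO and 9.05, 8.18, 15.7 and 4.49 CPM in S1pr1_KO. Egr3 was even among C3_KO tumours, with a coefficient of variation of 9.46% against 51.9% in WT and 49.9% in S1pr1_KO. Log2 fold changes against WT were -0.26 and -0.14 for Egr2 and 0.16 and 0.22 for Egr3 in C3_KO and S1pr1_KO (edgeR adjusted p = 0.822 to 0.934).

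Atf3 encodes a stress-induced member of the ATF and CREB family that pairs with JUN proteins. It was at 35.0, 18.3, 8.49 and 19.96 CPM in WT replicates 1 to 4, at 22.3, 13.3, 62.0 and 18.6 CPM in C3_KO and at 15.5, 12.1, 34.7 and 10.2 CPM in S1pr1_KO. Its range of 7.30-fold over the 12 libraries was the widest of the 10 genes. The log2 fold change in C3_KO against WT was 0.51 ± 0.54 (SE) (edgeR adjusted p = 0.824) and -0.18 without C3_KO replicate 3. Ier2 was at 167.3, 94.98, 119.6 and 134.0 CPM in WT, at 94.4, 209.6, 83.7 and 68.6 CPM in C3_KO and at 76.5, 55.0, 170.0 and 60.5 CPM in S1pr1_KO. S1pr1_KO replicates 1, 2 and 4 lay below all WT tumours and replicate 3 above them. Its log2 fold change in S1pr1_KO against WT was -0.51 ± 0.41 (SE) and had the smallest p of the 10 genes there (edgeR adjusted p = 0.560).

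**Figure D1:**
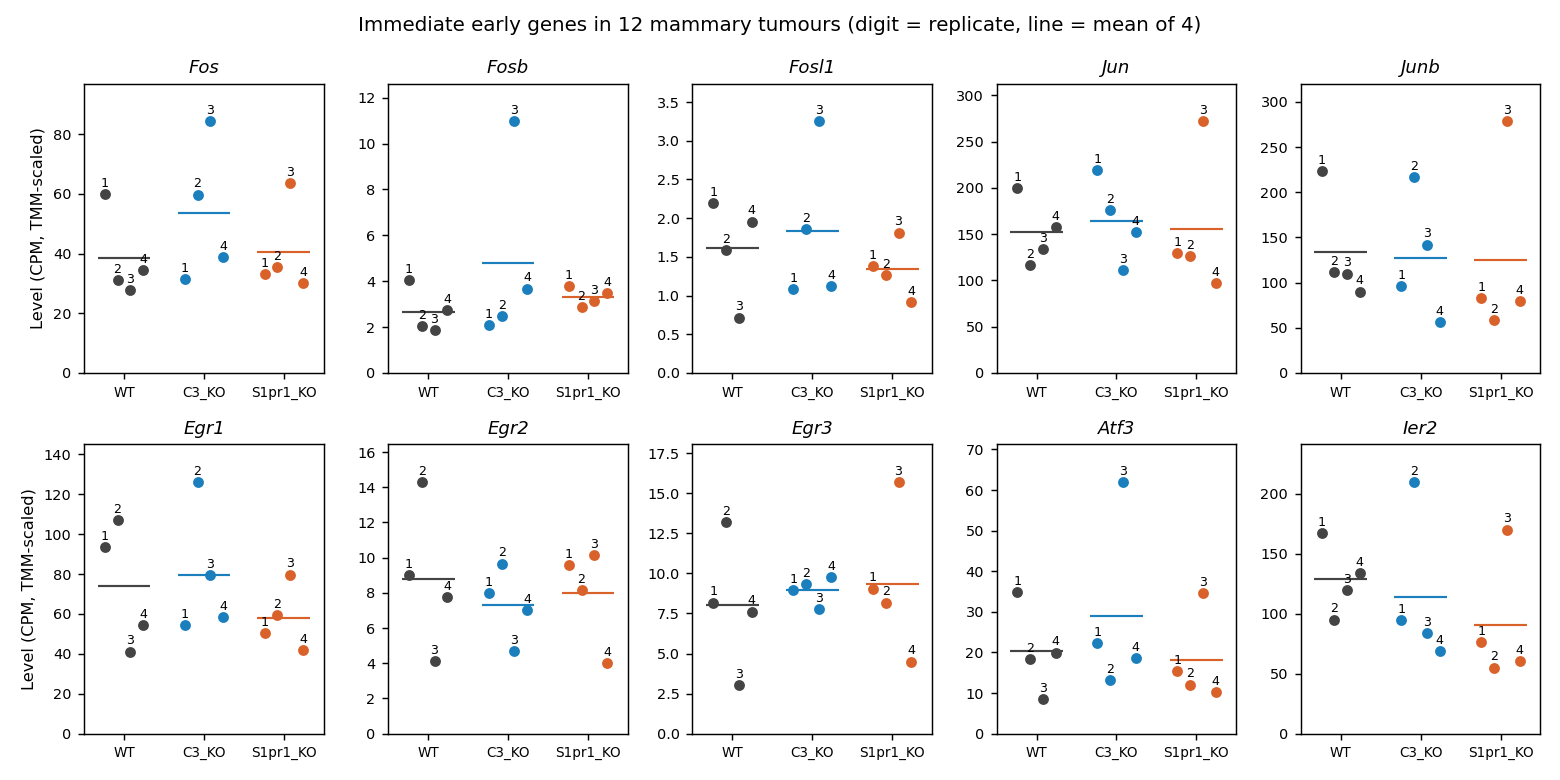
Level of each of the 10 genes in CPM scaled with TMM factors (y axes start at 0) in 4 tumours of each genotype; points are single libraries, digits are replicate numbers and lines are means of 4. C3_KO replicate 3 is highest for Fos, Fosb, Fosl1 and Atf3, and S1pr1_KO replicate 3 for Jun, Junb and Egr3.

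None of the 10 genes passed an adjusted p of 0.05 in any of the 3 comparisons. Over all 30660 genes edgeR called 0% in C3_KO against WT, 0% in S1pr1_KO against WT and 0% in S1pr1_KO against C3_KO. At an unadjusted edgeR p under 0.05 there were 0 of 10 members in each comparison, where 6.23%, 15.5% and 3.4% of all genes had such a p. Groups did not overlap for 0 of 10 members in each comparison, where they did not overlap for 3.04%, 7.58% and 1.31% of all genes. DESeq2 and limma on log2(FPKM + 1) called 0 of 10 members as well, although DESeq2 called 82, 955 and 114 genes and limma 1, 33 and 0 genes in the same comparisons. In C3_KO against WT, 7 of 10 members had a log2 fold change above 0, with a median of 0.14 beside 54.2% and 0.05 over all genes tested. In S1pr1_KO against WT, 4 of 10 were above 0, with a median of -0.12 beside 51.7% and 0.03. In S1pr1_KO against C3_KO, 2 of 10 were above 0, with a median of -0.37 beside 46.2% and -0.03. The 95% intervals were widest for Atf3 and Junb and reached from -1.85 to 0.48 for Atf3 between the knockouts and from -1.22 to 1.01 for Junb in S1pr1_KO against WT.

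**Figure D2:**
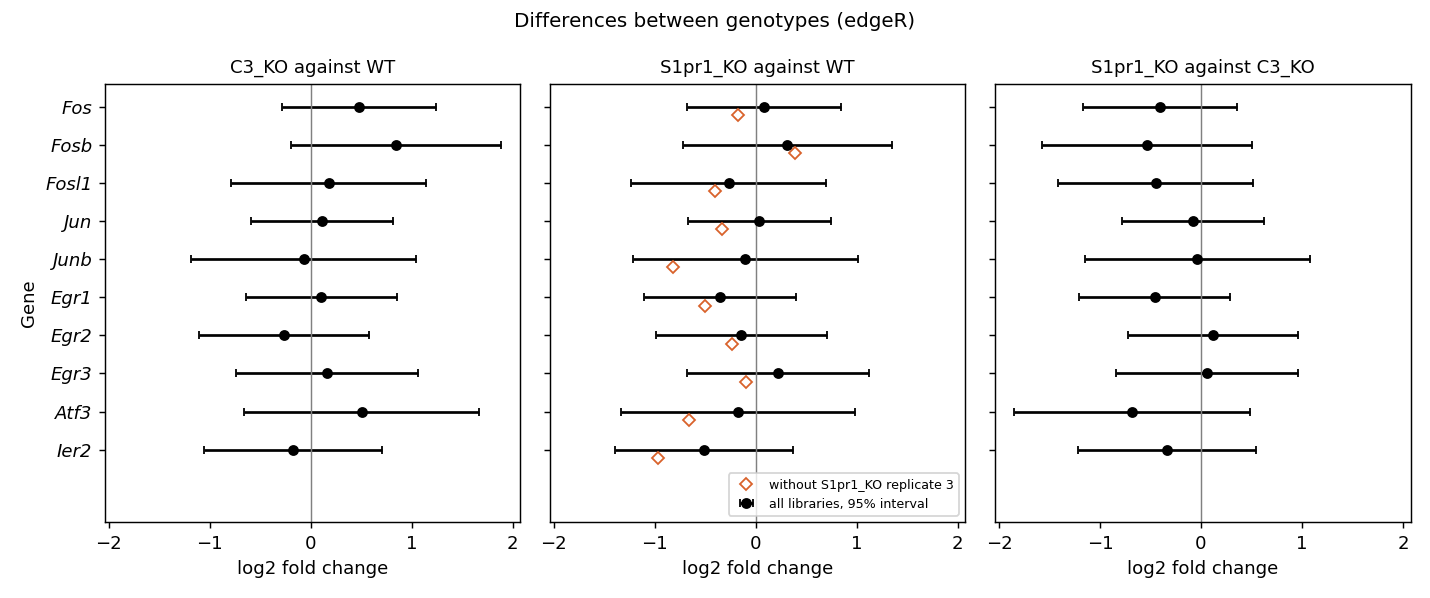
Log2 fold change (x axis) of each gene in the 3 comparisons from the edgeR fit of 12 libraries; points are estimates, bars 95% intervals, and open diamonds in the middle panel are estimates without S1pr1_KO replicate 3. Every interval spans 0, and without that library 9 of 10 estimates in S1pr1_KO against WT lie below 0.

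Of the single libraries left out in turn, S1pr1_KO replicate 3 moved the number of genes called the most. It exceeded the mean of the other 3 tumours of its genotype 3.79-fold for Junb, 2.76-fold for Atf3 and 2.66-fold for Ier2. The ratio was 2.32 for Jun, 2.17 for Egr3, 1.93 for Fos, 1.575 for Egr1, 1.53 for Fosl1, 1.40 for Egr2 and 0.92 for Fosb. Without S1pr1_KO replicate 3, edgeR called 1330 of 31286 genes (4.25%) and 0 of 10 members. Ier2 then stood at a log2 fold change of -0.97 ± 0.35 (SE) and an unadjusted p under 0.05 (edgeR adjusted p = 0.108), where 26.8% of all genes had an unadjusted p under 0.05. Other estimates without this library were -0.82 for Junb, -0.66 for Atf3, -0.50 for Egr1 and 0.38 for Fosb, and 9 of 10 lay below 0, with a median of -0.37 beside 0.08 over all genes. In that fit 12 of 18 ribosomal protein genes were called lower, with a median log2 of -1.16. Luminal markers had a median of -0.73 with none of 10 called, and 3 of 10 B and plasma cell markers were called higher, with a median of 4.16. Called higher too were 3 of 9 blood endothelial markers (Kdr, Ptprb and Tek), 3 of 8 salivary gland genes, 1 of 9 adipocyte markers (Pparg), 1 of 7 fibroblast markers (Pdgfra) and 1 of 9 macrophage markers (Adgre1). The B and plasma cell markers summed to 213 and 102.5 CPM in S1pr1_KO replicates 1 and 2 but 10.1 CPM in replicate 4. In WT they summed to 9.86 to 22.3 CPM. Libraries of S1pr1_KO replicates 1, 2 and 4 also had totals of 230.4 to 284.1 M counts against 327.1 to 484 M counts in WT. C3_KO replicate 4, the lowest of the 12 libraries in Junb at 56.1 CPM, had a total of 237.1 M counts. Mitochondrially encoded genes held 3.07% and 3.42% of counts in S1pr1_KO replicates 2 and 4 and 3.22% in C3_KO replicate 4. In the other libraries they held 4.32% to 8.35%. The part of tumour makeup and depth in the levels of Ier2 and Junb was not tested.

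Without C3_KO replicate 3 and S1pr1_KO replicates 1 and 4, in which milk or salivary genes were abundant, the estimates differed. In S1pr1_KO against WT 7 of 10 estimates then lay above 0, with a median of 0.24, and in S1pr1_KO against C3_KO 8 of 10, with a median of 0.20, where all 12 libraries gave 4 and 2. Junb turned to 0.39 against WT and to 0.50 against C3_KO, and Atf3 to 0.25 and 0.41. S1pr1_KO then held 2 tumours, replicates 2 and 3, and edgeR called 0 of 10 members. Directions between genotypes thus turned with the choice of libraries.

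Tumours of one genotype differed from each other. The SD of log2 CPM around the genotype mean was 0.48 for Jun, 0.54 for Fos and Egr1, 0.82 for Junb and 0.86 for Atf3, the lowest and the highest of the 10. Its median over the 10 genes was 0.63. Over all genes tested the median SD was also 0.63, but it was 0.44 over the 16168 genes at least as abundant as Fosl1, the lowest of the 10 by mean log2 CPM. Within those genes the members ranked from the 56.9th percentile for Jun to the 90.9th for Atf3.

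WT replicate 3 was the lowest of the 12 libraries for 6 genes, Fos, Fosb, Fosl1, Egr1, Egr3 and Atf3, but not for Jun, Junb or Ier2. S1pr1_KO replicate 4 ranked among the 3 lowest libraries for 9 of 10 genes. At the other end, WT replicate 1 ranked among the 3 highest for 8 genes and S1pr1_KO replicate 3 for 7. C3_KO replicate 3 was the highest for Fos, Fosb, Fosl1 and Atf3 while its Jun, at 111 CPM, was the second lowest of the 12 and its Egr2, at 4.67 CPM, was the third lowest. C3_KO replicate 2 was the highest for Egr1 and Ier2, and WT replicate 2 for Egr2. Beside the high FOS family and Atf3 levels of C3_KO replicate 3, milk protein genes summed to 95520 CPM, as given above, and 6 detected neutrophil markers summed to 104.8 CPM against 6.36 to 37.2 CPM in the other 11 libraries. Skin keratinocyte markers summed to 1306 CPM in the same tumour against 75.2 to 757.6 CPM in the other 11 libraries. Their part in those levels was not tested.

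**Figure D3:**
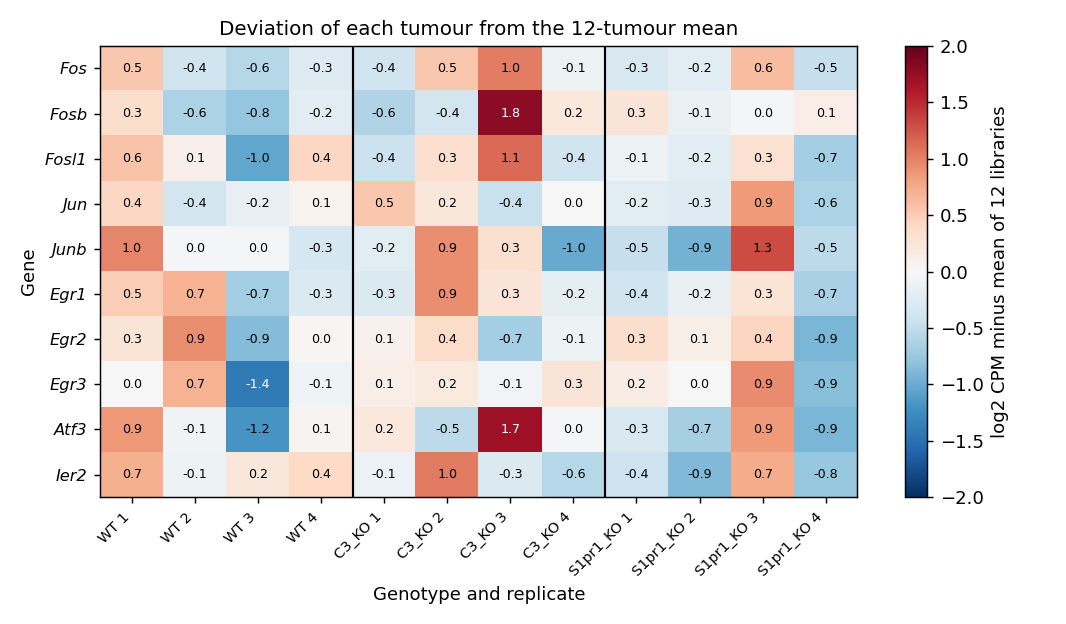
Log2 CPM of each gene (rows) in each of 12 tumours (columns) minus its mean over the 12, from blue (lower) to red (higher). The highest tumour differs from gene to gene, but some tumours are high or low for most genes. S1pr1_KO replicate 3 exceeds the median of the 12 for 10 of 10 genes and WT replicate 1 for 9. S1pr1_KO replicate 4 is among the 3 lowest for 9. C3_KO replicate 3 is red for Fos, Fosb, Fosl1 and Atf3 but blue for Jun and Egr2.

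Levels of the 10 genes were compared with each other over the 12 libraries in all 45 pairs. Pearson's r of log2 CPM was above 0 in 42 pairs, with a median of 0.46, and 5 pairs passed an adjusted p of 0.05 over the 45 (permutation test with 100000 resamples, two-sided). With Spearman's rho none of the 45 passed. The closest pair was Junb and Ier2, both on chromosome 8, with r = 0.86 (permutation adjusted p = 0.00765) and rho = 0.84 (permutation adjusted p = 0.0589). Egr2 and Egr3 followed with r = 0.84 (permutation adjusted p = 0.00765) and rho = 0.80 (permutation adjusted p = 0.0596). Fos and Fosl1 stood at r = 0.83 (permutation adjusted p = 0.00765) and rho = 0.78 (permutation adjusted p = 0.0639). Fosl1 with Atf3 gave r = 0.82 (permutation adjusted p = 0.0117) and rho = 0.71 (permutation adjusted p = 0.0928), and Fos with Atf3 r = 0.78 (permutation adjusted p = 0.0283) and rho = 0.71 (permutation adjusted p = 0.0928). Without the 2 libraries farthest from the median of the gene named first, r was 0.80 for Junb and Ier2, 0.63 for Egr2 and Egr3, 0.72 for Fos and Fosl1, 0.59 for Fosl1 and Atf3 and 0.49 for Fos and Atf3. In deviations from genotype means these 5 values were 0.88, 0.90, 0.85, 0.82 and 0.76.

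The canonical AP-1 partners Fos and Jun had r = 0.33 (permutation adjusted p = 0.436) and rho = 0.34 (permutation adjusted p = 0.441), and r was 0.56 without the 2 libraries farthest in Fos. Fosb had an r of 0.69 with Atf3 (permutation adjusted p = 0.074) and a rho of 0.50 (permutation adjusted p = 0.285), and the value was 0.11 without C3_KO replicate 3 and WT replicate 3. Pairs of Fosb with Jun, Egr2 and Ier2 were the 3 below 0, down to -0.32. The points share library depth and tumour makeup.

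**Figure D4:**
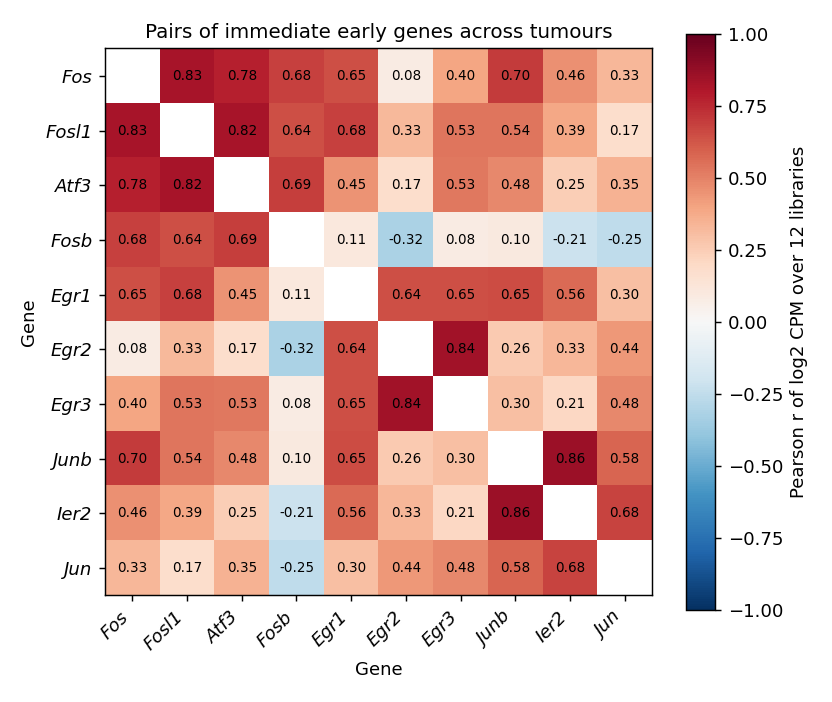
Pearson's r of log2 CPM over 12 libraries for each pair of genes, from blue (-1) to red (1). The order of genes was set by hand and is not a result. It does not strictly follow families, with Atf3 placed among the FOS genes and Ier2 between Junb and Jun. The highest values are 0.86 for Junb with Ier2, 0.84 for Egr2 with Egr3 and 0.83 for Fos with Fosl1.

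Among 12865 named genes outside the lists that averaged 1 or more in log2 CPM, those whose log2 CPM was most like Fos over the 12 libraries were Pcdh1, a protocadherin gene, at r = 0.95, Gsto1, a glutathione transferase gene, at 0.95, and Micall2, Cdyl and Tlcd3a at 0.93 each. For the mean of the 10 members they were Itpkc, an inositol trisphosphate kinase gene, and the tubulin gene Tubb6 at 0.95, Chst2 at 0.95, the actinin gene Actn1 at 0.94 and Eef1aknmt at 0.94. These are the extremes of a ranking and carry no test. Of the pathway genes listed below, Ier3, an immediate early gene of the same group, was most like both Fos at 0.84 and the mean at 0.89. Ier3 was at 129.7, 101.9, 57.4 and 58.5 CPM in WT replicates 1 to 4, 68.9, 143.5, 175.6 and 58.3 CPM in C3_KO and 51.4, 38.4, 130.9 and 42.0 CPM in S1pr1_KO, with its 3 genotypes overlapping.

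Other genes of the pathway were examined in 7 lists, in which none was called in any of the 3 comparisons by edgeR. In C3_KO against WT, 9 of 17 other immediate early transcription factors had a log2 fold change above 0, with a median of 0.03 beside 0.05 over all genes. Smallest in p were the orphan nuclear receptor genes Nr4a2 at log2 -0.80 and Nr4a3 at 0.96 (edgeR adjusted p = 0.765 for both). Of 22 other immediate early products, 14 were above 0 with a median of 0.08. Ptgs2, which encodes the inducible cyclooxygenase, stood at log2 1.55 and the ERK phosphatase gene Dusp5 at -0.77 (edgeR adjusted p = 0.765 for both). Ptgs2 was 23.1 CPM in C3_KO replicate 3 and 2.68 to 7.07 CPM in the other C3_KO tumours, the same library as for Fosb, and its log2 fold change was 0.49 without that library. Genes with AP-1 sites known as later targets had a median of 0.36, with 8 of 13 above 0. Mmp13, a collagenase gene, was at log2 3.30 ± 0.83 (SE) (edgeR adjusted p = 0.765), and Hmox1, which degrades haem, at -0.82. Mmp13 was 1.60, 10.1, 38.3 and 2.31 CPM in C3_KO replicates 1 to 4 and 0.806 to 1.99 CPM in WT, and its log2 fold change was 1.82 without C3_KO replicate 3.

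In the other 4 lists single genes lay on both sides of 0 in C3_KO against WT. Medians were 0.09 for 19 genes of the ERK pathway and the SRF, ETS and CREB activators, 0.02 for 12 genes of ERK feedback and EGR corepressors, 0.09 for 11 AP-1 partners outside the immediate early set and -0.07 for 11 heat shock genes. Above 0 were 12 of 19, 6 of 12, 7 of 11 and 5 of 11. The genes of smallest p were the JNK gene Mapk9 at log2 -0.48 and the RSK kinase gene Rps6ka3 at 0.66, the ERK inhibitor gene Spry4 at 0.70 and the EGR corepressor gene Nab2 at -0.39. In the remaining lists they were Batf at -0.75 and Jdp2 at 0.39, and the chaperone genes Hspe1 at -0.49 and Dnajb1 at -0.33. Their edgeR adjusted p-values lay between 0.765 and 0.779.

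In S1pr1_KO against WT, 9 of 17 other immediate early transcription factors were above 0, with a median of 0.18 beside 0.03 over all genes. Nr4a3 was at 3.22, 2.37, 0.825 and 2.48 CPM in S1pr1_KO replicates 1 to 4 and 0.706 to 1.495 CPM in WT, a log2 fold change of 1.2 ± 0.47 (SE) (edgeR adjusted p = 0.272). Replicate 3, the highest of its genotype for Jun and Junb, was here the lowest and within the WT range. Fosl2, another FOS family gene, stood at log2 0.58 (edgeR adjusted p = 0.338). Of 22 other immediate early products, 9 were above 0 with a median of -0.08. Dusp5 was at 26.4, 24.0, 36.9 and 42.1 CPM in S1pr1_KO against 47.9, 52.3, 48.7 and 76.0 CPM in WT, with no overlap, a log2 fold change of -0.80 ± 0.33 (SE) (edgeR adjusted p = 0.289). Groups did not overlap in the lower direction for 4.8% of all genes. The activity-regulated gene Arc was at -0.77 (edgeR adjusted p = 0.380).

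Heat shock genes were above 0 in 1 of 11 in S1pr1_KO against WT, with a median of -0.32. Hsp90aa1, an inducible HSP90 gene, was at 375 ± 34.6 CPM in S1pr1_KO and 641 ± 155 CPM in WT (SD, n = 4), with no overlap and a log2 fold change of -0.77 (edgeR adjusted p = 0.241). Hspe1, a mitochondrial chaperonin gene, was at log2 -0.92 (edgeR adjusted p = 0.237) and passed at -1.23 without S1pr1_KO replicate 3 (edgeR adjusted p = 0.0454). ERK pathway genes and activators had a median of 0.05 with 11 of 19 above 0. Map2k2, which encodes the ERK kinase MEK2, was at 91.3, 65.5, 211.9 and 76.5 CPM in S1pr1_KO and 129 to 202 CPM in WT, a log2 fold change of -0.60 (edgeR adjusted p = 0.437) and -1.07 without S1pr1_KO replicate 3 (edgeR adjusted p = 0.0487). Its split between replicate 3 and the other tumours was like that of Junb and Ier2. Elk4, an ETS factor gene, was at -0.31. Later targets had a median of -0.33, with 5 of 13 above 0, and the smallest p was that of Timp1, an inhibitor of matrix proteases, at log2 -1.21 ± 0.38 (SE) (edgeR adjusted p = 0.234). Hmox1 was at -0.82. ERK feedback and EGR corepressor genes had a median of -0.05 with 5 of 12 above 0, with Nab2 at -0.56 and the ETS factor gene Etv4 at -0.37. AP-1 partners had a median of 0.07 with 8 of 11 above 0, with Atf7 at 0.50. For these genes of the last 2 lists and for Elk4 and Hmox1, edgeR adjusted p-values lay between 0.305 and 0.609.

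Between the knockouts, the 7 lists had medians from -0.55 for the later targets to -0.02 for the AP-1 partners, beside -0.03 over all genes. Heat shock genes had 0 of 11 above 0 with a median of -0.31, and other immediate early products 5 of 22 with a median of -0.13. All 3 comparisons share samples, so their values for a gene are not independent of each other.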

How the data were processed

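Total RNA of 12 mammary tumours, 4 per genotype, was sequenced. The authors deposited raw counts per gene as whole numbers, with a gene length, and FPKM values that scale those counts by length and column total. Per the submitters' processing notes, StringTie and build GRCm39 (mm39) were named; the aligner, the counting tool and the use of strand are not given there. All 12 sample columns were matched by title and none was left unused. Genotypes came from the labels, and replicate numbers, given in accession order, pair nothing. The labels do not say whether tumours came from separate mice, so p-values measure the spread between these samples.

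Counts were tested with edgeR 4.0.16 in R 4.3.3 (edgeR's low-count filter, TMM scaling, robust quasi-likelihood F-test, all 12 libraries, 9 residual degrees of freedom). Benjamini-Hochberg adjustment ran over 30660 genes, with calls below an adjusted p of 0.05. SEs came from the fold change and F. Log2 CPM used a prior count of 2. DESeq2 1.42.0 and limma 3.58.1 on log2(FPKM + 1), with a pseudocount of 1, were alternatives, as were other scaling, filters and left-out libraries. The test was checked on simulated data. Pairs of members were tested with numpy 2.4.6 by permutation. Intervals cover the model's error at 95%.

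Members, lists and tests were chosen with earlier results of these data known. Named were all members, the 2 genes of smallest p (and any called) per pathway list in each comparison with WT, and 5 genes most like Fos and the members' mean. One gene that this rule names is not reported here. Markers and Ier3 were named for their values. Overlapping genes came from GENCODE M21, an older build, and promoters from RefSeq GRCm38.p6.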

Additional observations from a re-analysis of the deposited data

Results flagged for a closer look

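In 3 of 30 sets of 4 tumours (10 genes in 3 genotypes) a single tumour stood far from the others of its genotype by the size of its gap relative to the range. The cut-off is meant to flag about 1 in 20 independent sets. These sets share libraries, and Fos and Junb in S1pr1_KO were flagged by the same one. The share over all genes was not computed, so the count cannot be set against chance. Fos in S1pr1_KO was 63.6 CPM in replicate 3 and 30.1 to 35.5 CPM in the others. Junb in S1pr1_KO was 278.4 CPM in replicate 3 and 58.8 to 82.6 CPM in the others. Junb in WT was 223.5 CPM in replicate 1 and 90.1 to 111.9 CPM in the others.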

How the results depend on the processing

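Over 19 alternatives and the 3 comparisons, none of the 10 members was called under any alternative. Of 570 fold changes of members, 511 kept their direction and side of the threshold and 59 turned in direction, 43 of these on leaving out 1 library. These included some of the larger estimates, such as Atf3 in C3_KO against WT. The cause was not tested.

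Leaving out 1 library at a time, the log2 fold changes that turned in C3_KO against WT ranged as follows, Atf3 -0.18 to 0.89, Egr1 -0.21 to 0.34, Egr2 -0.50 to 0.0725, Egr3 -0.11 to 0.51, Fosl1 -0.25 to 0.36, Ier2 -0.65 to 0.0016, Jun -0.0558 to 0.27, Junb -0.45 to 0.29. Leaving out 1 library at a time, the log2 fold changes that turned in S1pr1_KO against WT ranged as follows, Atf3 -0.66 to 0.21, Egr2 -0.38 to 0.19, Egr3 -0.10 to 0.57, Fos -0.18 to 0.38, Jun -0.33 to 0.21, Junb -0.82 to 0.26. Leaving out 1 library at a time, the log2 fold changes that turned in S1pr1_KO against C3_KO ranged as follows, Atf3 -1.20 to 0.0012, Egr2 -0.0468 to 0.34, Egr3 -0.29 to 0.29, Fosb -0.78 to 0.27, Ier2 -0.81 to 0.14, Jun -0.47 to 0.0932, Junb -0.78 to 0.35. On leaving out 1 library, the members that kept their sign ranged over Fos 0.17 to 0.78, Fosb 0.0389 to 1.11 in C3_KO against WT, over Fosb 0.17 to 0.58, Fosl1 -0.51 to -0.0845, Egr1 -0.56 to -0.12, Ier2 -0.97 to -0.34 in S1pr1_KO against WT, over Fos -0.69 to -0.0964, Fosl1 -0.63 to -0.0164, Egr1 -0.64 to -0.15 in S1pr1_KO against C3_KO. Without C3_KO replicate 3 and S1pr1_KO replicates 1 and 4, the direction turned for Fosl1 at -0.22, Atf3 at -0.16 in C3_KO against WT and for Junb at 0.39, Egr2 at 0.12, Atf3 at 0.25 in S1pr1_KO against WT and for Fos at 0.23, Fosb at 0.15, Fosl1 at 0.21, Jun at 0.16, Junb at 0.50, Atf3 at 0.41 in S1pr1_KO against C3_KO. With DESeq2 size factors in edgeR, the direction turned for Junb at 0.0138 in S1pr1_KO against C3_KO. With DESeq2, the direction turned for Junb at 0.0138 in S1pr1_KO against C3_KO. With limma on log2(FPKM + 1), the direction turned for Egr2 at 0.0298 in S1pr1_KO against WT and for Egr3 at -0.0047 in S1pr1_KO against C3_KO. With only the 2 genotypes in the fit, the direction turned for Junb at 0.0166 in S1pr1_KO against C3_KO.

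Over all genes, where edgeR called 0 in each comparison, DESeq2 called 82, 955 and 114 genes in C3_KO against WT, S1pr1_KO against WT and S1pr1_KO against C3_KO, and limma on log2(FPKM + 1) called 1 and 33 in the comparisons with WT. In S1pr1_KO against WT the count was 10 with no filter on low counts, 23 with at least 1 CPM in 4 libraries and 68 with only those 2 genotypes in the fit. Leaving out 1 library gave 0 to 8, 0 to 1330 and 0 to 3 genes, with the highest counts in the comparisons with WT reached without S1pr1_KO replicate 3. Of the 28 values of other named genes, 3 passed under an alternative, Map2k2 and Hspe1 as given above and Mmp13 with DESeq2 at log2 3.33 (adjusted p = 0.00668). No paired analysis was possible because the labels give the tumours no shared replicate numbers. Members with an unadjusted edgeR p under 0.05 numbered 0 with all libraries and 0 to 1, 0 to 1 and 0 to 2 on leaving out 1. In C3_KO against WT, 1 of 10 came without WT replicate 1 or C3_KO replicate 1, beside 6.08% and 8% of all genes. Without S1pr1_KO replicate 3 it was 1 of 10 against WT, beside 26.8% of all genes. Between the knockouts it was then 2 of 10, beside 9.08%. Each member had at least 246 counts in every library.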
